A study of Mus musculus with 6 samples.

Results

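The miR-199 and miR-214 miRNAs were followed as 6 rows of the known miRNA count table, taken by name: mmu-miR-199a-5p, mmu-miR-199a-3p, mmu-miR-199b-5p, mmu-miR-199b-3p, mmu-miR-214-3p and mmu-miR-214-5p, where mmu stands for mouse. They are 6 of 1978 known miRNAs in the table, and all 6 passed the filter on low counts that left 619 miRNAs for testing. The rows miR-199a-3p and miR-199b-3p held the same count in all 6 libraries, so the 6 rows carry 5 separate measurements, and this shared row is called miR-199a/b-3p below. The cells were c-kit+ cardiac progenitor cells, heart cells with the surface receptor kinase c-kit that were sorted with antibody-coupled magnetic beads from digested hearts of wild-type male C57BL/6 mice aged 4 to 6 weeks. There were 3 control libraries, labelled 0 hours, and 3 libraries of cells kept under hypoxia for 12 hours. The treatment label reads hypoxia for all 6, so the groups rest on the titles and times. The titles call the libraries of each group biological replicates, without saying whether they stem from different animals or cultures. If they do not, p-values measure only the library-to-library spread, which may be technical. The labels also do not say whether control cells were cultured for the same time, so time in culture and hypoxia cannot be told apart. The extraction protocol speaks of exosomes and the design text of cells, and this point was not settled.

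An miRNA hairpin is cut to a short duplex, and either strand of it, the 5p or the 3p arm, can enter an Argonaute protein and guide it to messenger RNAs that pair with the seed, bases 2 to 8 of the arm. The miR-199a-2 and miR-214 hairpins are made from 1 long non-coding RNA, Dnm3os, which runs opposite to the dynamin gene Dnm3 and is expressed in mesenchyme, with the transcription factor Twist1 among its known activators. In the heart the family is known from fibroblasts, smooth muscle and stressed cardiomyocytes. There miR-199a-5p is known to repress Hif1a and Sirt1, miR-199a-3p to promote cardiomyocyte proliferation, miR-199b-5p to repress the kinase Dyrk1a, and miR-214-3p to repress the sodium-calcium exchanger.

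Mature sequences from RefSeq (GRCm38.p6) were found for 5 of the 6 members, all except miR-199b-5p. They are shown with the seed in capitals because the seed separates the members into groups and the identity of the 3p arms fixes what the counts can tell.
miR-199a-5p: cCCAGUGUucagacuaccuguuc
miR-199a-3p and miR-199b-3p: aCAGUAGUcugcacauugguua
miR-214-3p: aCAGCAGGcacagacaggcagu
miR-214-5p: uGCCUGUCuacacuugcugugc
The lengths are 23 bases for miR-199a-5p and 22 for the other 3 sequences, and no correction for length was made. Levels of different arms are compared as counted, and whether their sequences are captured equally well was not tested. The length of miR-199b-5p was not read, and its level is set beside the others as counted. The seeds of miR-199a-3p and miR-214-3p differ at 2 of their bases, U5C and U8G, counted from 1 at the 5′ end of miR-199a-3p. Among 1679 mature miRNAs in the table, the seed of miR-214-3p recurs in miR-761. That miRNA had 0 counts in every library, which allows a level of up to 0.243 CPM (scaled counts, defined below) in the library with the highest limit (3 counts of its scaled total). The seeds of miR-199a-5p and miR-214-5p recur in no other listed miRNA.

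The hairpins are shown with the listed mature arms in capitals. In Mir199b the capitals on the 5′ side mark the best ungapped match to miR-199a-5p.
Mir199a-2: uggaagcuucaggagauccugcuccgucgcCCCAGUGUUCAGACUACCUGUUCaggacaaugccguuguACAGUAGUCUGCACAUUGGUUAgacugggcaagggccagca
Mir214: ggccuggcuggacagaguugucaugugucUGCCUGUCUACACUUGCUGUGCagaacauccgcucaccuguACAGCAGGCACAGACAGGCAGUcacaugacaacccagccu
Mir199a-1: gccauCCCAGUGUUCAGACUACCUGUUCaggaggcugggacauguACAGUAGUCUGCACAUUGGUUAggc
Mir199b: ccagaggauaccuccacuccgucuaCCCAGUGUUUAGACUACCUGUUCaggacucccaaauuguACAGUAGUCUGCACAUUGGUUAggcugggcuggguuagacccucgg
The 5′ stretch of Mir199b differs from miR-199a-5p at 1 base, C10U, counted from 1 at the 5′ end of miR-199a-5p and so outside the seed. Both Mir199a hairpins hold miR-199a-5p without a difference, and all 3 miR-199 hairpins hold the same 3p arm. Counts of miR-199a-5p therefore pool 2 loci and those of miR-199a/b-3p pool 3 loci. The sources used here do not give how many mismatches the counting allowed, and the part of miR-199a-5p reads in the miR-199b-5p count was not tested.

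On GRCm38, Mir199a-2 lies on the plus strand of chromosome 1 at 162217814 to 162217923 and Mir214 at 162223368 to 162223477, with 5444 bases between them. Both lie inside exons of 2 annotated transcripts of Dnm3os (162217623 to 162225550, plus strand) and, on the opposite strand, inside an intron of Dnm3. Mir199a-1 lies on the minus strand of chromosome 9 at 21496495 to 21496564, opposite an intron of Dnm2. Mir199b lies on the plus strand of chromosome 2 at 32318460 to 32318569, opposite an intron of Dnm1. Each hairpin is thus antisense to a dynamin gene.

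Each library held between 12285970 and 16975987 counts of known miRNAs. Library columns carry a letter, A, B or C, beside the group digit. All directions below rest on reading the digit 0 as 0 hours, the control, and the digit 1 as hypoxia. The letters match no replicate number of the titles. Deviations from the group means correlated over the tested miRNAs by 0.52, 0.43 and 0.28 between same-lettered libraries. Between unlike letters the correlations ran from -0.44 to 0.12, and the letter was read as pairing libraries. The c-kit protein that defines these cells is not measured by miRNA counts. Of markers of other cell types, the 2 endothelial arms of miR-126a summed to between 200685 and 249670 CPM, the 4 arms of the smooth muscle miRNAs miR-143 and miR-145a to between 22388 and 50813 CPM, 6 cardiomyocyte markers to between 77.2 and 176 CPM, 7 blood cell markers to between 42.6 and 56.8 CPM and 6 epithelial markers to between 4.45 and 10.5 CPM. None of these markers was at 0 counts in all libraries. The 2 libraries of letter A stood apart in the members and in the smooth muscle markers, and results are therefore also given without them.

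Levels are given in CPM, counts scaled to 1 common library size with TMM factors. miR-199a/b-3p was the most abundant member, ranked 30th of 1978 by mean level, followed by miR-199a-5p at rank 47, miR-214-3p at 122, miR-214-5p at 161 and miR-199b-5p at 198. In every library the 5 measurements kept this order. Counting the shared reads once, the family summed to a mean level of 5121 CPM ± 2041 at 0 hours (SD, n = 3) and of 6112 CPM ± 2561 after 12 hours of hypoxia (SD, n = 3). In such bulk libraries a different number of cells that make these miRNAs and a different amount of miRNA per cell cannot be told apart.

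The shared row of mmu-miR-199a-3p and mmu-miR-199b-3p stood at 4098, 2067 and 2278 CPM in control A to C, and the hypoxia libraries of these letters had 5107, 2930 and 2948 CPM. In each letter the hypoxia library was the higher one, while the control library of letter A lay above hypoxia B and C, so the groups overlapped. mmu-miR-199a-5p stood at 2740, 1407 and 1426 CPM without hypoxia and at 3216, 1311 and 1325 CPM in hypoxia. It was higher under hypoxia in letter A and slightly lower in B and C. mmu-miR-199b-5p, the least abundant member, stood at 90.3, 50.2 and 54.9 CPM in control, from 1115, 653 and 863 counts. In hypoxia it stood at 143, 63.2 and 88.0 CPM, from 2386, 1031 and 1213 counts. It was higher under hypoxia in each letter, and again control A lay above hypoxia B and C.

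The more abundant arm mmu-miR-214-3p had 353, 164 and 223 CPM in control A to C and, in the same letter order, 414, 165 and 235 CPM in hypoxia A to C. The difference was largest in letter A and close to 0 in letter B, and the ranges of the groups overlapped almost entirely. Its partner mmu-miR-214-5p had 189, 107 and 115 CPM without hypoxia and 188, 90.5 and 111 CPM in hypoxia. It was the member whose level was lower under hypoxia in all 3 letters, by between 0.01 and 0.24 on the log2 scale.

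**Figure D1:**
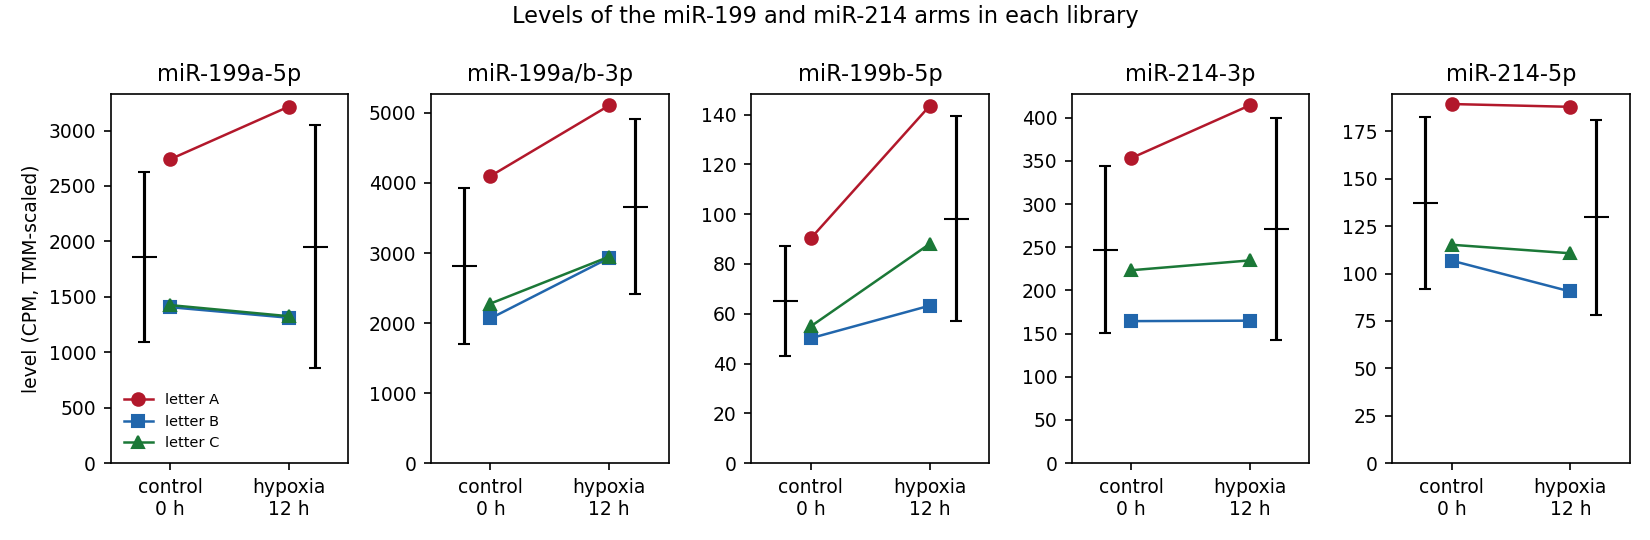
Level in CPM (y axis, starting at 0, a separate scale for each panel) of each separate measurement in control (0 h) and hypoxia (12 h) libraries, with same-lettered libraries joined and the group mean ± SD (n = 3) in black. Letter A is the highest in both groups in all 5 panels, and the lines slope upward in every letter for miR-199a/b-3p and miR-199b-5p.

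The spread between libraries was wide for miRNAs of this abundance. The highest library exceeded the lowest by 2.45-fold for miR-199a-5p, 2.47-fold for miR-199a/b-3p, 2.86-fold for miR-199b-5p, 2.52-fold for miR-214-3p and 2.09-fold for miR-214-5p. The SD of log2 CPM within groups was 0.65 for miR-199a-5p, 0.62 for miR-214-3p, 0.53 for miR-199b-5p and 0.50 for both miR-199a/b-3p and miR-214-5p. The median over the 185 tested miRNAs with at least 100 CPM was 0.24, and 11 of these had a larger SD than miR-199a-5p. For miR-214-3p it was 15, for miR-199b-5p 24, for miR-199a/b-3p 26 and for miR-214-5p 28. miR-199b-5p itself, with group means of 65.1 and 98.2 CPM, is not among the 185. Both A libraries carried this spread, being the highest 2 libraries for every member. The summed smooth muscle markers also had their highest values there, 50813 CPM in control A and 42136 CPM in hypoxia A against 22388 to 28899 CPM in the other four libraries, and their part in the members' spread was not tested.

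Against that spread, no member passed the test between groups. edgeR's quasi-likelihood test called 0 of the 6 members and 0 of all 619 tested miRNAs (0%) after Benjamini-Hochberg adjustment, and at an unadjusted p under 0.05 it gave 0 members against 42 miRNAs in all (6.79%). The log2 fold changes were 0.59 (SE 0.35, edgeR adjusted p = 0.82) for miR-199b-5p, 0.38 (SE 0.32, adjusted p = 0.92) for miR-199a/b-3p, 0.14 (SE 0.38) for miR-214-3p, 0.07 (SE 0.40) for miR-199a-5p and -0.08 (SE 0.33) for miR-214-5p. The adjusted p of these last 3 arms was 0.99 each. Of the 6 members 5 lay above 0, with a median of 0.26 (0.14 with the shared reads once), against 51.2% above 0 and a median of 0.01 over all tested miRNAs. Libraries of the groups did not overlap for 0 of the 6 members, against 12.9% of all tested miRNAs.

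With the letter as a block, a fit that compares libraries within letters, the standard errors lay between 0.10 and 0.13. The blocked log2 fold changes were 0.40 (SE 0.10, edgeR adjusted p = 0.060) for miR-199a/b-3p and 0.56 (SE 0.13, adjusted p = 0.055) for miR-199b-5p, both just outside the threshold of 0.05. For the other arms they were 0.10 (SE 0.11) for miR-214-3p, 0.01 (SE 0.11) for miR-199a-5p and -0.10 (SE 0.12) for miR-214-5p, with adjusted p of 0.70, 0.97 and 0.72. That fit called 14 of 619 miRNAs (2.26%) and 0 of the 6 members. At an unadjusted p under 0.05 it gave 3 of 6 members (2 of 5 with the shared reads once), against 21.3% of all tested miRNAs. DESeq2 with the same block, added after the data were seen, called miR-199b-5p (log2 fold change 0.55, DESeq2 adjusted p = 0.0076) and miR-199a/b-3p (0.39, DESeq2 adjusted p = 0.024). That fit called 36 of the 528 miRNAs to which DESeq2 gave an adjusted p (6.82%). The edgeR fit with the block but without letter B called miR-199b-5p and 23 of 627 miRNAs in all (3.67%). These calls thus depend on the block, on the tool and on the libraries.

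Within letters A, B and C the log2 differences of miR-199a/b-3p were 0.32, 0.50 and 0.37, and those of miR-199b-5p 0.67, 0.33 and 0.68. Those of miR-199a-5p were 0.23, -0.10 and -0.11. The hypoxia library was the higher one in all 3 letters for 4 of the 6 members (3 of 5 with the shared reads once), against 20% of all tested miRNAs. The 4 include miR-214-3p, with differences of 0.23, 0.0047 and 0.07 in letters A, B and C. Levels of the members correlated with each other, so they do not count as independent cases. Without both A libraries and without a block, the log2 fold changes were 0.44 for miR-199a/b-3p and 0.52 for miR-199b-5p. They were 0.04 for miR-214-3p, -0.10 for miR-199a-5p and -0.14 for miR-214-5p. In that fit edgeR called 0 of all miRNAs and none of the members (adjusted p from 0.27 to 0.99).

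**Figure D2:**
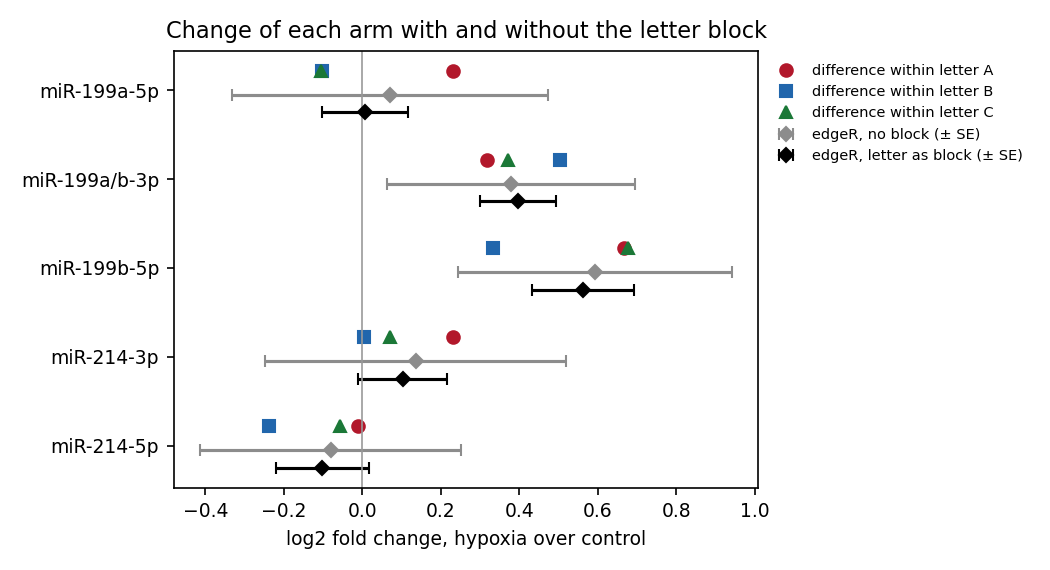
Log2 fold change of hypoxia over control (x axis) for each separate measurement, as the difference within each letter (coloured symbols), the edgeR estimate without a block (grey, ± SE) and with the letter as a block (black, ± SE). All 3 letters lie to the right of 0 for miR-199a/b-3p and miR-199b-5p, while miR-199a-5p has letters on both sides.

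Ratios between members of 1 library do not depend on scaling or depth. Of the 5 ratios examined, the groups did not overlap for 1, that of miR-199b-5p to miR-199a-5p. By the hairpins above these 5p arms differ at 1 base, and the part of miR-199a-5p reads in the miR-199b-5p count was not tested. miR-199b-5p counts came to 3.57% ± 0.28 of miR-199a-5p counts at 0 hours and to 5.31% ± 1.17 after 12 hours of hypoxia (SD over 3 libraries each). As linear ratios, libraries A, B and C had 0.0329, 0.0357 and 0.0385 in control and 0.0446, 0.0482 and 0.0664 in hypoxia. Every hypoxia library thus lay above every control library. The difference of mean log2 ratios was 0.55, a 1.47-fold higher ratio under hypoxia, with 0.44, 0.43 and 0.79 within letters A, B and C (two-sided exact permutation test, p = 0.1, the smallest possible, adjusted over the 5 ratios p = 0.50, with the hypoxia library higher in 3 of 3 letters). It was 0.61 without both A libraries.

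Same-arm ratios of other miRNAs with lettered paralogs gave the background for this. Of 387 such pairs the libraries of the groups did not overlap for 17.6%, and of 84 pairs with at least 500 counts of both miRNAs in every library for 21.4%, so a lack of overlap alone is common. Over all 387 pairs the median size of the change was 0.23 on the log2 scale, and 68 had a larger change than miR-199b-5p over miR-199a-5p. In the second set the median size was 0.14, and 1 of the 84 pairs had a larger change. Pairs share miRNAs and are not independent of each other.

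The 5p to 3p ratio of miR-199a, taken against miR-199a/b-3p, was 0.669, 0.681 and 0.626 in control A to C and, in the same letter order, 0.630, 0.448 and 0.449 in hypoxia A to C. The 3p arm was 1.47 times the 5p arm in control B and 2.23 times in hypoxia B, and 1.60 times in control C and 2.22 times in hypoxia C, while hypoxia A stayed within the control range. The difference of mean log2 ratios was -0.39, with -0.09, -0.60 and -0.48 within the letters (two-sided exact permutation test, p = 0.2, adjusted over the 5 ratios p = 0.50). Without both A libraries it was -0.54. Because the 3p count pools miR-199a and miR-199b, a change in the arms of miR-199a and a change of miR-199b cannot be told apart from this ratio alone. The ratio of miR-199b-5p to the same 3p count was 0.0220, 0.0243 and 0.0241 in control and 0.0281, 0.0216 and 0.0299 in hypoxia, a difference of 0.16 on the log2 scale with letters on both sides of 0 (exact permutation p = 0.4).

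For miR-214 the 3p arm exceeded the 5p arm in every library, by 1.86, 1.54 and 1.94 times in control and by 2.21, 1.82 and 2.12 times in hypoxia. The excess was larger in the hypoxia library of each letter, although the groups overlapped. The log2 5p to 3p ratio differed by -0.20 between groups, with -0.24, -0.24 and -0.13 within the letters, an SD over letters of 0.07 (two-sided exact permutation test, p = 0.3; exact sign-flip permutation test over the 3 letters, p = 0.25, the smallest possible). Both arms of miR-214 come from 1 hairpin, so this ratio mixes no loci.

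Over all 189 hairpin names with both arms tested, 18.5% had groups that did not overlap in the arm ratio and 21.7% had a lower 5p to 3p ratio under hypoxia in all 3 letters. Among the 40 with at least 500 counts of both arms in every library these shares were 20% and 22.5%, and 2 of these 40 had a lower change than the -0.39 of miR-199a. In either direction, 11 of the 40, miR-199a included, had a change at least that large in size. A lower ratio in all 3 letters, which miR-199a and miR-214 both had, was thus common.

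**Figure D3:**
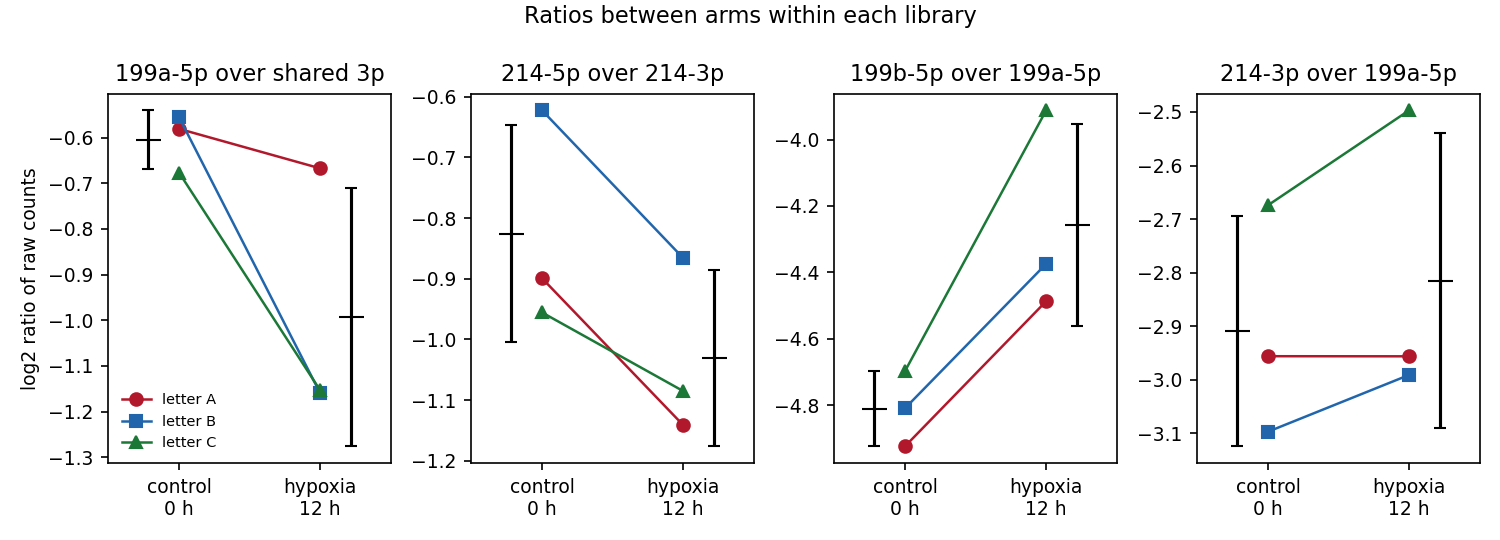
Log2 ratio of raw counts (y axis, a separate scale for each panel) in control (0 h) and hypoxia (12 h) libraries, same letters joined, group mean ± SD (n = 3) in black. The control and hypoxia points do not overlap for miR-199b-5p over miR-199a-5p, and overlap in the other panels.

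**Figure D4:**
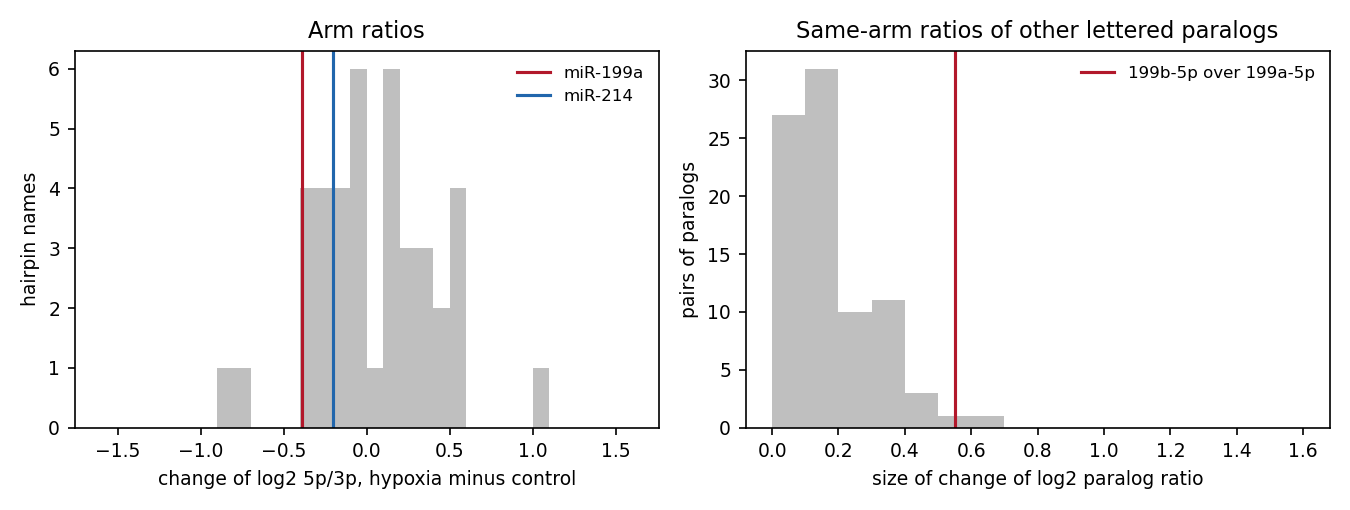
Left, the change of the log2 5p to 3p ratio between groups (x axis) over the 40 hairpin names with at least 500 counts of both arms in every library (y axis, number of names), with miR-199a at -0.39 and miR-214 at -0.20 marked. Right, the size of the change of same-arm log2 ratios over 84 pairs of other lettered paralogs (y axis, number of pairs), with miR-199b-5p over miR-199a-5p marked at 0.55.

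miR-214-3p and miR-199a-5p share the Dnm3os transcript, although miR-199a-5p also has its chromosome 9 locus. The ratio of miR-214-3p to miR-199a-5p was 0.129, 0.117 and 0.157 in control A to C and, in the same letter order, 0.129, 0.126 and 0.177 in hypoxia A to C. The letters differed more than the groups did, with C the highest in both. The difference of mean log2 ratios was 0.09, smaller than the SD of 0.22 in control and 0.28 in hypoxia (two-sided exact permutation test, p = 0.7). Across the 6 libraries, log2 CPM of the 5 measurements correlated pairwise with Pearson's r from 0.76 (miR-199b-5p with miR-214-5p) to 0.97 (miR-199a-5p with miR-214-5p). This describes 6 libraries that share letters, of which the 2 A libraries were the highest for every member.

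Within the family, miR-199a-5p made up 36.7%, 37.1% and 34.8% of member counts in control A to C and, in the same letter order, 35.5%, 28.8% and 28.2% in hypoxia A to C, with the shared reads counted once. The share of miR-199a/b-3p ran from 54.5% to 55.6% in control and from 56.3% to 64.3% in hypoxia. The share of miR-214-5p ran from 2.53% to 2.81% in control and from 1.99% to 2.35% in hypoxia. Shares of 1 total move against each other, so these ranges restate the ratios above on another scale.

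The Dnm3os promoter is shown because Dnm3os carries Mir199a-2 and Mir214 (RefSeq, GRCm38.p6, chr1:162217373-162217672, plus strand, 250 bases before to 50 after the start). Log2 CPM of miR-199a-5p and miR-214-3p correlated with Pearson's r of 0.92 over the 6 libraries. That is not particular to them, as 38 and 42 miRNAs outside the members reached at least 0.9 with each. A link of this promoter to the levels was not tested. Capitals mark E-boxes (CANNTG, the class of site that Twist1 binds) and a CArG box, the site of serum response factor.
Dnm3os promoter: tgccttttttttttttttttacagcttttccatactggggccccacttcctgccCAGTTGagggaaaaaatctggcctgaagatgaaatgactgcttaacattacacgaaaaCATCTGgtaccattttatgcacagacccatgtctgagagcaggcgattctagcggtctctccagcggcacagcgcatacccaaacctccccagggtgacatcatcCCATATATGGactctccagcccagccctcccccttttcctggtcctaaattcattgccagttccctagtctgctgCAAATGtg
Both strands were searched. The window holds 3 E-boxes, starting at bases 55, 113 and 293, and 72.3% of 32851 promoter windows of this length hold at least 1, while 17.6% hold at least 3. It holds 1 CArG box, starting at base 218, a motif searched after the sequence was seen, which 1.63% of the windows hold. The sequence ACGTG, searched as a core of the hypoxia response element, is not in this window and is in 19.6% of all windows. Other forms of that core were not searched. Such matches describe letters and not bound sites.

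The known miRNAs whose levels ran most like miR-199a-5p over the 6 libraries, among 356 others with a mean of at least 10 CPM, were miR-299a-3p and miR-299b-3p (Pearson's r of log2 CPM 0.99 each, with nearly equal counts), miR-337-5p, miR-323-3p and miR-380-5p (0.99 each). Those most like miR-214-3p were miR-376b-3p (0.99), miR-376b-5p, miR-494-3p, miR-434-3p and miR-376a-5p (0.98 each). By the RefSeq positions all 10 of these lie on chromosome 12, with starts between 109585818 and 109723786, in the region of the imprinted Dlk1-Dio3 miRNAs, which the placenta and embryo are known to express from the maternal chromosome. Of the 38 miRNAs with r of at least 0.9 to miR-199a-5p, 34 lie on chromosome 12, against 60 of the 293 compared miRNAs that have a position. For miR-214-3p it was 31 of the 39 with a position. The median r over all compared miRNAs was -0.02 and 0.02.

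The per-library values show the same high letter A. miR-337-5p had 241, 128 and 140 CPM in control A to C and, in the same letter order, 250, 113 and 121 CPM in hypoxia, with a log2 fold change of -0.07 (SE 0.37). miR-494-3p had 198, 109 and 133 CPM without hypoxia and 234, 89.9 and 129 CPM in hypoxia, with a log2 fold change of 0.04 (SE 0.37). Both were highest in the 2 A libraries, as the members were. Because all 10 were chosen by their correlation with a member over these same 6 libraries, this likeness was fixed by the choice. Between groups edgeR called none of the 10 and 0 of all 619 tested miRNAs.

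A list of 15 miRNAs of smooth muscle and fibroblasts gave the nearest comparison by cell type. All 15 were tested, and edgeR called 0 of them in either direction with or without the letter block. Of all 619 tested miRNAs it called 0 without the block and 14 (2.26%) with it. Of the 15, 8 lay above 0, and the median log2 fold change of the list was 0.04 against 0.01 over all tested miRNAs. Single miRNAs of the list ran from -0.33 for miR-140-5p to 0.64 for miR-29c-3p. Among them miR-143-3p, the most abundant smooth muscle miRNA of the list, had 49636, 25883 and 21694 CPM in control A to C and, in the same letter order, 41052, 28249 and 21695 CPM in hypoxia. It shared the high A libraries with the members but was lower in hypoxia A than in control A. miR-152-3p, a repressor of the DNA methyltransferase Dnmt1, had 2572, 1657 and 1899 CPM without hypoxia and 2731, 2034 and 2042 CPM in hypoxia, with a log2 fold change of 0.15 (SE 0.21). By contrast miR-21a-5p, known from activated fibroblasts, had its highest level in control B (359863 CPM) and not in the A libraries (271546 and 272761 CPM). The other arm, miR-21a-3p, was highest in letter A in both groups. It had 49.6, 19.2 and 25.3 CPM in control A to C and 47.4, 44.5 and 45.6 CPM in hypoxia. miR-10b-5p had its lowest levels in the A libraries, 2992 and 2931 CPM against 3555 to 5116 CPM in the others.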

How the data were processed

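The deposited tables hold raw read counts, 1 column per library, as whole numbers written by the authors. Per the submitters' processing notes, bcl2fastq 2.0, DESeq2 and the mm10 build were used, without their roles. Aligner, counting program and handling of multiply matching reads: not given in the sources used here. miR-199a-3p and miR-199b-3p held identical counts, so such reads stand in both rows and in the library totals. The predicted miRNA table was not used.

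The test used edgeR 4.0.16 under R 4.3.3, with filterByExpr, TMM factors, the quasi-likelihood test of hypoxia against control and Benjamini-Hochberg adjustment at 0.05. A standard error is |log2 fold change| over the root of the F statistic. Log2 CPM used a prior count of 2. The procedure was tested on simulated data. Ratios used raw counts and exact permutation tests, which cannot go below 0.1 with 3 libraries against 3 (scipy 1.17.1 and Python 3.11.15 served the adjustment). Columns were assigned to groups by their digit. Same-lettered columns were read as pairs because every same-letter correlation (0.28 to 0.52) exceeded 0.1, while unlike letters gave -0.44 to 0.12. The unlike pair of control C with hypoxia B (0.12) also exceeded that limit. The pairing thus comes from column names and values, not from the labels, and the fit with that block is an alternative. Limits for 0 counts cover counting error only. Loci were read from RefSeq (GRCm38.p6) and GENCODE M21. Other scalings, no filter, DESeq2 1.42.0, limma-voom (limma 3.58.1), shared reads counted once and left-out libraries were alternatives.

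Named miRNAs were the members, those sharing a member's seed, a fixed list of smooth muscle and fibroblast miRNAs, marker lists, and the 5 most like miR-199a-5p and miR-214-3p. The members and lists were chosen with earlier results of these data known.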

Additional observations from a re-analysis of the deposited data

How the results depend on the processing

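Without a block, the alternatives called 4 of all miRNAs with no filter, 1 with DESeq2 and 0 otherwise. The count of 0 called members held under every one of them. With the letter as a replicate block edgeR also called 0, but without letter B in that fit it called 1 (miR-199b-5p, log2 fold change 0.65, edgeR adjusted p = 0.028, with 23 called over all miRNAs; without letter A or letter C it called 0 members and 0 of all miRNAs), and DESeq2 with the block, added after the data were seen, called 3 members among 36 miRNAs called in all, namely miR-199b-5p and the shared row under both its names. miR-199a/b-3p and miR-199b-5p lay above 0 in all alternatives run, with values from 0.06 to 0.72 and from 0.21 to 0.87 when single libraries were left out. The lowest values came without hypoxia A and the highest without control A. The direction of the other 3 arms depended on single libraries. Leaving out each library gave -0.50 to 0.42 for miR-199a-5p (-0.12 without control B, -0.10 without control C and -0.50 without hypoxia A), -0.31 to 0.45 for miR-214-3p (-0.11 without control B and -0.31 without hypoxia A) and -0.45 to 0.19 for miR-214-5p (above 0 without control A, 0.19, or hypoxia B, 0.09). miR-199a-5p was also below 0 with the block without letter A (-0.10), without both A libraries and no block (-0.10) and in DESeq2 with the block (-0.0025). The cause was not tested. With library size only, the median of all miRNAs moved to 0.08 and no member changed direction.

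Of the ratios, that of miR-214-3p to miR-199a-5p ran from -0.064 (without hypoxia C) to 0.21 when libraries were left out. The ratio of miR-199b-5p to miR-199a-5p ran from 0.38 to 0.67 and the miR-199a arm ratio from -0.55 to -0.31. Paired by letter in place of unpaired, as a replicate block, the ratio differences are the same values (0.55 and -0.39), with an exact sign-flip permutation p of 0.25 each, the smallest possible. The lowest count of any member was 653, and the number of libraries, 3 a group, limits the tests.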
